A study of Mus musculus with 45 samples.

Results

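The 32 genes described here encode the machinery that moves new secretory and membrane proteins into the endoplasmic reticulum (ER) and attaches N-linked sugar chains to them. They were chosen by gene symbol: 7 genes of the translocation channel, 5 of signal peptidase, 4 of the translocon-associated protein complex, 6 of the signal recognition particle, 2 of its receptor and 8 of oligosaccharyltransferase. All 32 were present among the 30317 symbols of the deposited expression table, and all 32 passed the filter that left 15614 symbols for testing.

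Secretory proteins carry an N-terminal signal sequence that the signal recognition particle binds as it leaves the ribosome, and the particle docks at its receptor on the ER membrane. The chain then passes through the Sec61 channel, signal peptidase removes the signal sequence, and oligosaccharyltransferase moves a preassembled glycan from a lipid carrier onto asparagine residues. B cells that become antibody-secreting plasma cells are known to enlarge this machinery, and antibody heavy chains are among its N-glycosylated products.

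The study exposed follicular B cells from the spleen of mice of genotype B6.Blimp1GFP/+ to a Notch ligand in culture. All groups carried that allele, which as background is a green fluorescent reporter at one copy of Prdm1, the gene of the plasma cell regulator Blimp1. Culture was on a layer of OP9 cells, which are mouse stromal cells from bone marrow, or of OP9-DL1 cells, which in addition carry Delta-like 1, a ligand of Notch receptors. There were 15 groups of 3 libraries: cells kept without stimulus for 68 h, cells given lipopolysaccharide (LPS) for 20, 44 or 68 h, and cells given anti-IgM F(ab)'2 for 20, 44 or 68 h, each on both stromas, and a further LPS group on OP9-DL1 labelled Blimp1+, for which the labels give no time. Both stimuli were used at 10 µg/mL. The cells were sorted for viability and their polyadenylated RNA was sequenced. The labels do not give the age or sex of the animals and do not say that replicates came from separate animals or cultures, so p-values measure the spread between these libraries, which may be technical. OP9 cells are mouse cells, so RNA from stroma carried through the sort counts toward the same gene symbols. In such bulk samples, fewer cells of a type and less RNA per cell cannot be told apart.

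Levels are given as TPM (transcripts per 1000000 transcripts), an abundance per transcript length, after scaling between libraries, and called scaled TPM. A gene was called higher or lower when its Benjamini-Hochberg adjusted p in limma, over all genes tested, was under 0.05. Percentages of all genes are shares of such calls. Where a count at an unadjusted p under 0.05 is given, no share of all genes at that threshold stands beside it. Fold changes are on the log2(scaled TPM + 1) scale.

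Some libraries stood apart. Depth, inferred from the lowest value of each library in the authors' log2 table, ran from about 3.07 to 29.1 M estimated reads (M, 1000000), and no member was listed at 0 in any library. Actb, which encodes beta-actin, was between 12355 and 85337 TPM in 10 libraries and at most 2974 TPM in the other 35. The 10 were all 3 of LPS 20 h on OP9-DL1, all 3 of anti-IgM 20 h on OP9, and replicate 3 of unstimulated OP9, LPS 68 h on OP9, LPS 68 h on OP9-DL1 and anti-IgM 68 h on OP9. Unstimulated cells on OP9 stood apart in another way: a list of 20 stromal markers, 19 of them in the table, summed to between 1263 and 19144 TPM there and to between 71.4 and 639.7 TPM in the other 42 libraries. In that group 18 stromal markers reached 1 scaled TPM in all 3 libraries, against 15 in unstimulated OP9-DL1, and none was at 0. The 12 B cell markers, all detected in both groups, summed to between 2524 and 15130 TPM in unstimulated OP9 and to between 36055 and 46845 TPM in unstimulated OP9-DL1. Replicate 3 of LPS 20 h on OP9 had the lowest Actb, 217 TPM, and lay far from its partners in some members. Srpr was at 926 scaled TPM there against 98.9 and 106, and Ssr1 at 7.19 against 38.1 and 41.4. The Actb rule does not set this library aside.

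The high-Actb libraries differed from the rest in many of the members. Tram2, a channel-associated membrane protein, had a median of 74.0 scaled TPM in the 10 and 2.52 in the other 35, with ranges of 16.3 to 248 and 0.852 to 10.7 that did not overlap. Ssr1, the alpha subunit of the translocon-associated protein complex, had medians of 880.1 and 50.7 scaled TPM, and its ranges, 293 to 2048 and 7.19 to 112, did not overlap either. The ratio of the medians was 9.75 for Ssr3, 5.63 for Spcs3, 3.66 for Srp72 and 2.94 for Srp19. It was 0.448 for Sec61a1, 0.449 for Srp68, 0.485 for Srprb and 0.537 for Rpn1. Subunits of one complex thus stood on opposite sides of this split. These medians and ranges were computed for the members only, so the split is not shown to be particular to them.

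**Figure D1:**
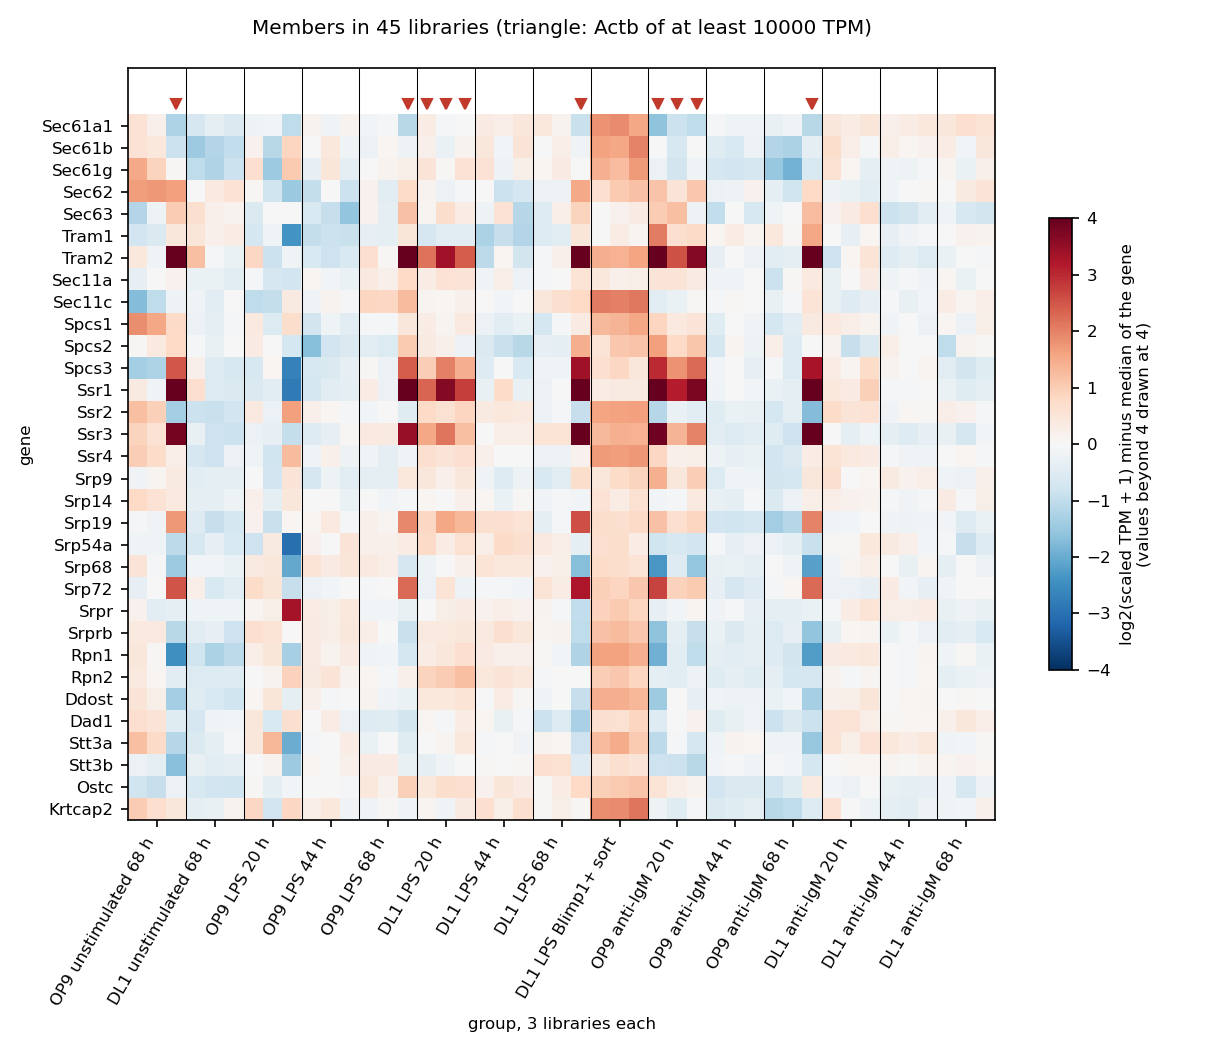
Level of each of the 32 genes (vertical axis) in each of 45 libraries (horizontal axis, 15 groups of 3), as log2(scaled TPM + 1) minus the median of that gene over all libraries; values beyond 4 are drawn at 4. Red triangles mark the 10 libraries with Actb of at least 10000 TPM. Tram2, Ssr1, Ssr3 and Spcs3 are high in the marked libraries, and the 3 Blimp1+ libraries are red for most genes of the channel, Ssr2, Ssr4 and oligosaccharyltransferase.

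Together the 32 members took 1.00, 1.06 and 1.02% of 1000000 TPM in the 3 Blimp1+ libraries (mean 1.03 ± 0.0275, SD, n = 3). The other 14 group means lay between 0.503% in anti-IgM 68 h on OP9 and 0.719% in LPS 68 h on OP9-DL1. Outside Blimp1+ the highest single libraries were replicate 3 of LPS 68 h on OP9-DL1 at 0.884% and replicate 3 of LPS 68 h on OP9 at 0.826%, both high in Actb, and replicate 1 of unstimulated OP9 at 0.805%. All 3 Blimp1+ libraries therefore lay above all 42 others. Immunoglobulin genes took between 19.3 and 20.1% in Blimp1+ libraries and at most 4.14% elsewhere, which lowers the share left for every other gene there.

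**Figure D2:**
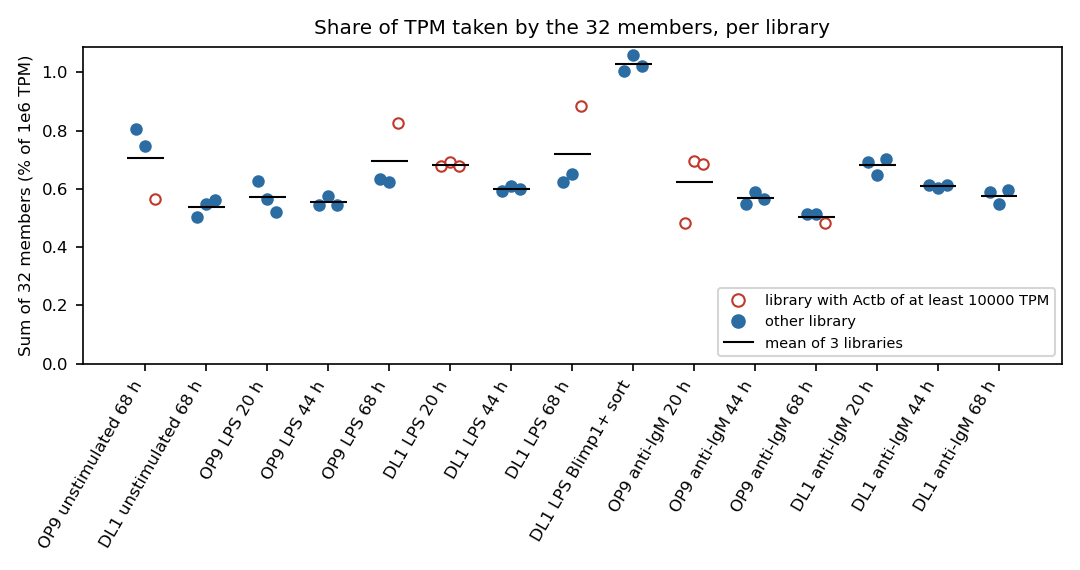
Sum of the 32 members as a percent of 1000000 TPM (vertical axis, from 0) in each library of the 15 groups (horizontal axis). Points are libraries, open red points are libraries with Actb of at least 10000 TPM, and lines are means of 3. The Blimp1+ libraries lie between 1.00 and 1.06%, above every other library.

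For 15 of the 32 members the highest of the 15 group means was that of Blimp1+ cells. The highest group was counted for the members only, and the share over all genes was not computed. Anti-IgM 20 h on OP9 held the highest mean of 6 members and LPS 68 h on OP9-DL1 that of 4. These 2 groups include high-Actb libraries. For 9 members (28.1%) the 3 Blimp1+ libraries lay above all 42 other libraries, against 2.66% of all genes tested: Sec61a1, Sec61b, Sec11c, Ssr4, Srprb, Rpn1, Ddost, Ostc and Krtcap2. Against the 30 other libraries that were neither high in Actb nor unstimulated OP9, this held for 16 members (50.0%) and 4.28% of all genes. The second set added Sec61g, Sec62, Spcs1, Spcs2, Ssr3, Srp72 and Tram2.

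The promoters of the members were searched for elements through which the ER stress response is known to act on its target genes. RefSeq promoter windows (GRCm38.p6, from 250 bases before to 50 after the start) were found for 24 of the 32 genes. None was found for Sec61a1, Sec11c, Spcs3, Ssr2, Srp19, Srp68, Tram1 and Ostc. On either strand, the ER stress element (CCAAT, 9 bases, CCACG) was in 0 of the 24 and in 0.137% of 27025 genes. The second ER stress element (ATTGG, 1 base, CCACG) was in 1 of the 24 and in 0.0444% of genes, and the unfolded protein response element (TGACGTGG) was in 0 and in 0.714%. Any of the 3 was in 4.17% of the members and in 0.884% of all genes. The single match was in Krtcap2, which encodes a subunit of oligosaccharyltransferase, and started 18 bases after the transcription start. It is shown with its flanks on the plus strand at chr3:89246481-89246509, with the element in capitals.
Krtcap2 element: gggacacggATTGGACCACGgacggggcg

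Short parts of these elements were then searched on either strand of the 250 upstream bases, a choice made after the full elements had been counted. CCAAT was in 11 of 24 members (45.8%) and in 37.5% of genes, and CCACG in 13 (54.2%) and 31.0%. Both were in 7 members (29.2%) and in 10.6% of genes. The genes counted here and above were all 27025 with a window, and not only the 15614 tested for expression. Shares among the tested genes alone were not computed. CCACG read on the other strand is part of the unfolded protein response element, so these counts overlap. The windows shown are those of Rpn1, at chr6:88084223-88084472 on the plus strand, and Sec63, at chr10:42761246-42761495 on the plus strand. They were chosen by fold change. Of the 7, Rpn1 had the largest mean log2 fold change over the Blimp1+ comparisons, 1.96, and Sec63 the smallest, 0.09. The others were Stt3a (1.47), Spcs2 (1.17), Srpr (1.03), Ssr3 (0.88) and Stt3b (0.57). Capitals mark CCAAT and CCACG or their reverse complements.
Rpn1 upstream: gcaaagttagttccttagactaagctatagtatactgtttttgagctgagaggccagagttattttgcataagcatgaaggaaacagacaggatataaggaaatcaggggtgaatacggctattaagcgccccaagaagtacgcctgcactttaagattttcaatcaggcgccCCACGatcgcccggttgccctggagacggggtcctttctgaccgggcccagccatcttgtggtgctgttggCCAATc
Sec63 upstream: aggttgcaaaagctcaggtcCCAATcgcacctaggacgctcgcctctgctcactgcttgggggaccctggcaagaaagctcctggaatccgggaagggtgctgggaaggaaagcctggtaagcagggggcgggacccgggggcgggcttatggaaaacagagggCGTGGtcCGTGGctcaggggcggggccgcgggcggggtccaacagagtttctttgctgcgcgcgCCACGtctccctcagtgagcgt
Rpn1, whose product ribophorin I is a subunit of oligosaccharyltransferase, rose in Blimp1+ cells against unstimulated cells with a log2 fold change of 2.59 (SE 0.48). For Sec63, whose product helps draw chains through the channel, that log2 fold change was -0.15 (SE 0.47, adjusted p = 0.916). A match in such a window is a description of its letters and not evidence of binding, and a window without a match says only that those letters are not in it.

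The sort for Blimp1+ cells was compared with 3 groups on the same stroma: the whole LPS cultures at 44 h and 68 h and unstimulated cells at 68 h. The comparisons share the Blimp1+ libraries. Prdm1 fitted the label, at 67.5, 82.7 and 76.8 scaled TPM in Blimp1+ cells and 5.30, 3.01 and 3.22 in LPS 44 h. Against LPS 44 h, 15 of the 32 members were higher and 0 lower, where 7.02% of all genes were higher and 5.03% lower. Against LPS 68 h, 12 were higher and 0 lower, where 2.56% of all genes were higher and 0.282% lower. Against unstimulated cells, 18 were higher and 0 lower, where 10.3% were higher and 4.25% lower. The median log2 fold change of the members was 1.13, 0.90 and 1.33 in these comparisons, and that of all genes tested was 0.09, -0.01 and -0.01.

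The B cell markers summed to between 39603 and 41990 TPM in Blimp1+ cells and to between 8925 and 9516 TPM in LPS 44 h, and the stromal markers to between 163 and 271 TPM and to between 89.0 and 119 TPM. In LPS 68 h the sums were between 5762 and 26004 TPM for B cell markers and between 97.2 and 141 TPM for stromal markers, and in unstimulated cells between 36055 and 46845 TPM and between 245 and 590.1 TPM. Of the 19 stromal markers, 4 were higher and 0 lower than in LPS 44 h, with 18 positive in sign and a median log2 fold change of 1.43. Against LPS 68 h 0 were called, with 18 positive, 9 at an unadjusted p under 0.05 and a median of 1.40, and against unstimulated cells 0 were called, with 6 positive, 0 at an unadjusted p under 0.05 and a median of -0.20. Of the 12 B cell markers, 5 were higher and 0 lower than in LPS 44 h, and 1 was higher and 1 lower in each of the other comparisons. The B cell list holds the immunoglobulin genes Ighm and Ighd. Immunoglobulin genes took between 19.3 and 20.1% of TPM in Blimp1+ cells and between 2.09 and 2.15% in LPS 44 h. The part of Ighm and Ighd in the B cell sums was not tested. The part of the stromal and B cell markers in the result was not tested either. Without the high-Actb libraries the counts were 23, 17 and 24 higher and 0 lower, and no share of all genes is given beside them. The comparison with LPS 44 h contains no such library, and its change comes from the spread, which is estimated over all groups. With only the groups compared in the fit, 26 members were higher and 0 lower than in LPS 44 h, where 19.8% of all genes were higher and 13.8% lower. In that fit 8 were higher and 0 lower than in LPS 68 h, where 1.15% of all genes were higher and 0.0384% lower, and 27 were higher and 0 lower than in unstimulated cells, where 18.7% were higher and 14.0% lower. With TPM as deposited, and so without scaling between libraries, the counts fell to 5, 5 and 8 higher and 0 lower. Shares of all genes are not given for this setting or for the fits with a library left out. Against LPS 44 h the count was 8 without replicate 2 of LPS 44 h or replicate 3 of Blimp1+ cells, 9 without replicate 3 of LPS 44 h or replicate 1 or 2 of Blimp1+ cells, and 10 without replicate 1 of LPS 44 h. The members called under every setting that was run were 5 against LPS 44 h (Krtcap2, Sec11c, Spcs1, Spcs2 and Ssr4), 4 against LPS 68 h (Krtcap2, Sec11c, Sec61b and Ssr4) and 8 against unstimulated cells (Krtcap2, Ostc, Sec11c, Sec61b, Sec61g, Spcs1, Ssr2 and Ssr4).

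**Figure D3:**
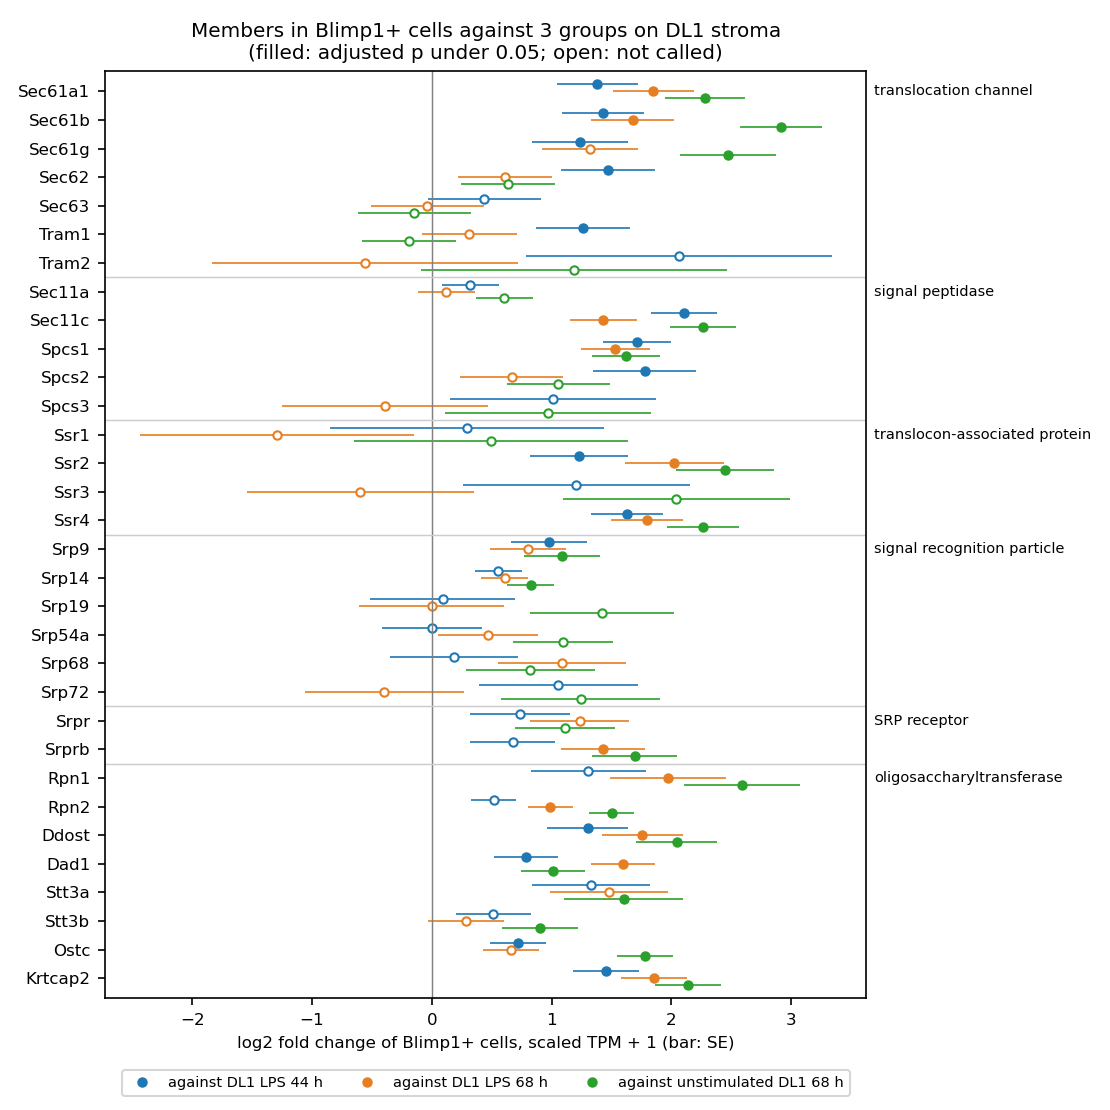
Log2 fold change of each member (vertical axis, by role) in Blimp1+ cells against LPS 44 h (blue), LPS 68 h (orange) and unstimulated cells (green) on OP9-DL1, with standard errors as bars. Filled points have an adjusted p under 0.05. No filled point lies below 0, all 8 oligosaccharyltransferase genes are filled in green, and Tram2, Ssr1, Ssr3 and Spcs3 have the widest bars.

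In the translocation channel, 5 of 7 members were higher in Blimp1+ cells than in LPS 44 h, 2 than in LPS 68 h and 3 than in unstimulated cells. Sec61a1, the pore-forming subunit, was at 471, 509 and 397 scaled TPM in Blimp1+ cells, at 171, 165 and 188 in LPS 44 h, at 182, 152 and 72.4 in LPS 68 h and at 84.7, 104 and 91.3 in unstimulated cells. The Blimp1+ libraries were all above the others, and replicate 3 of LPS 68 h, high in Actb, was below its partners. The log2 fold change was 1.85 (SE 0.34, adjusted p = 4.36e-04) against LPS 68 h and 2.28 (SE 0.34, adjusted p = 4.89e-06) against unstimulated cells. Sec61b, a small subunit of the channel, was at 819, 776 and 1049 scaled TPM in Blimp1+ cells and at 96.4, 117 and 134 in unstimulated cells. The log2 fold change between them, 2.92 (SE 0.34, adjusted p = 8.21e-08), was the largest of the 32, and 262, 317 and 243 scaled TPM in LPS 68 h lay between them.

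Sec61g, the other small subunit, was at 639, 559.7 and 777 scaled TPM in Blimp1+ cells and at 117, 103 and 132 in unstimulated cells, with no overlap and a log2 fold change of 2.47 (SE 0.40, adjusted p = 2.10e-05). Sec62, which with Sec63 serves chains that enter after translation, was at 62.7, 81.5 and 90.0 scaled TPM in Blimp1+ cells and at 38.7, 21.1 and 24.4 in LPS 44 h. The groups did not overlap, and the log2 fold change was 1.47 (SE 0.39, adjusted p = 0.00946). With TPM as deposited its adjusted p was 0.0507 for a log2 fold change of 1.14. Sec63 itself was at 31.3, 35.3 and 39.1 scaled TPM in Blimp1+ cells and at 26.5, 46.5 and 13.4 in LPS 44 h, and the groups overlapped. Tram1, which lies beside the channel, was higher only against LPS 44 h among the 3 comparisons, by 1.26, and its log2 fold change against unstimulated cells was -0.19 (SE 0.39, adjusted p = 0.84). Tram2 was at 9.62, 9.24 and 10.7 scaled TPM in Blimp1+ cells and at 0.852, 3.05 and 1.32 in LPS 44 h, without overlap, and its log2 fold change of 2.06 (SE 1.28, adjusted p = 0.38) did not pass the test.

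In signal peptidase, 3 of 5 members were higher than in LPS 44 h and 2 of 5 in each of the other comparisons. Sec11c, 1 of the 2 alternative catalytic subunits, was at 1892, 1822 and 1961 scaled TPM in Blimp1+ cells, at 450.4, 415 and 449.5 in LPS 44 h, at 620.2, 708 and 780.3 in LPS 68 h and at 405, 329 and 456 in unstimulated cells. No library of another group reached the Blimp1+ range, and the next highest of the 45 was replicate 3 of LPS 68 h on OP9 at 1094 scaled TPM. The log2 fold change was 2.11 (SE 0.28, adjusted p = 1.14e-06) against LPS 44 h and 2.26 (SE 0.28, adjusted p = 1.63e-07) against unstimulated cells. Sec11a, the other catalytic subunit, was at 319, 271 and 278 scaled TPM in Blimp1+ cells and at 214, 281 and 203 in LPS 44 h, where the groups overlapped and the log2 fold change was 0.32 (SE 0.24, adjusted p = 0.501). Spcs1, an accessory subunit, was at 594, 628 and 702 scaled TPM in Blimp1+ cells and at 206, 177 and 202 in LPS 44 h, a log2 fold change of 1.71 (SE 0.29, adjusted p = 4.84e-05). Spcs2, a further accessory subunit, was lower in level, at 24.3, 35.5 and 37.1 scaled TPM in Blimp1+ cells and 10.6, 8.41 and 6.99 in LPS 44 h, with a log2 fold change of 1.78 (SE 0.43, adjusted p = 0.00387). Both accessory subunits separated Blimp1+ cells from LPS 44 h without overlap. Spcs3 passed the test in none of the 3 comparisons, and 1 library of LPS 68 h, replicate 3, stood at 1561 scaled TPM against 236, 264 and 201 in Blimp1+ cells.

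The ratio of paralogs was also computed in each library. Sec11c over Sec11a, as a ratio of TPM, was 5.94, 6.73 and 7.06 in Blimp1+ cells. It was 2.10, 1.47 and 2.22 in LPS 44 h, 2.73, 3.00 and 2.25 in LPS 68 h, and 2.07, 1.67 and 2.60 in unstimulated cells. The log2 ratio was higher in Blimp1+ cells by 1.79, 1.31 and 1.66. Stt3a over Stt3b, the alternative catalytic subunits of oligosaccharyltransferase, was 5.73, 5.87 and 4.69 in Blimp1+ cells, 3.11, 3.30 and 2.84 in LPS 44 h, 2.26, 2.24 and 2.58 in LPS 68 h, and 2.68, 3.45 and 4.07 in unstimulated cells. The log2 ratio was higher by 0.81, 1.20 and 0.69. Each of these 6 differences had a two-sided exact permutation p of 0.1, the smallest that 3 against 3 libraries allow, so none could pass 0.05. Outside these groups Sec11c over Sec11a was highest at 4.19 in replicate 3 of LPS 20 h on OP9, below all Blimp1+ libraries. Stt3a over Stt3b reached 8.87 in replicate 1 of unstimulated OP9 and 7.43 in replicate 2 of LPS 20 h on OP9, so that ratio was not highest in Blimp1+ cells.

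**Figure D4:**
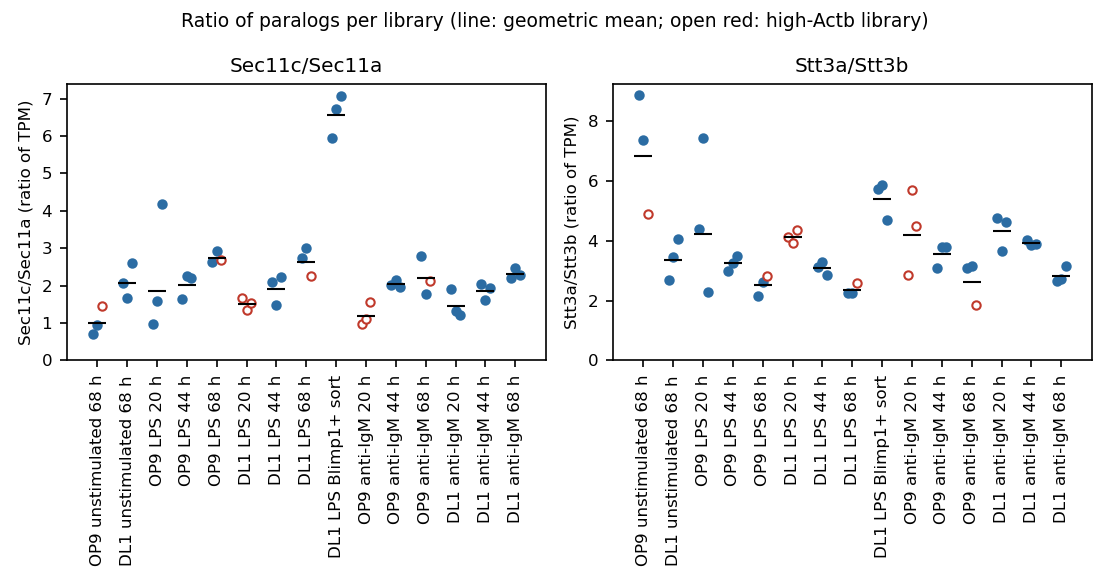
Ratio of TPM of Sec11c to Sec11a (left) and of Stt3a to Stt3b (right) on vertical axes from 0, in each library of the 15 groups (horizontal axes). Points are libraries, open red points are high-Actb libraries, and lines are geometric means of 3. The Blimp1+ libraries lie between 5.94 and 7.06 on the left, above all others, and between 4.69 and 5.87 on the right, within the range of the others.

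In the translocon-associated protein complex, which sits beside the channel and helps some signal sequences to open it, the 4 subunits split. Ssr2 and Ssr4 were higher in all 3 comparisons and Ssr1 and Ssr3 in none. Ssr2 was at 613, 630.3 and 643 scaled TPM in Blimp1+ cells, 261, 276 and 266 in LPS 44 h, 174, 193 and 108 in LPS 68 h and 113, 109.5 and 121 in unstimulated cells, and the groups did not overlap. This was a log2 fold change of 2.03 (SE 0.41, adjusted p = 0.00176) against LPS 68 h and 2.45 (SE 0.41, adjusted p = 3.71e-05) against unstimulated cells. Ssr4 was at 615, 592 and 617 scaled TPM in Blimp1+ cells and 214, 187 and 188 in LPS 44 h. Its log2 fold change was 1.63 (SE 0.30) there, 1.80 (SE 0.30) against LPS 68 h and 2.27 (SE 0.30) against unstimulated cells, with adjusted p of 1.78e-04, 1.14e-04 and 6.69e-07. Ssr3 was at 164, 179 and 173 scaled TPM in Blimp1+ cells and 64.5, 78.8 and 79.6 in LPS 44 h, without overlap, yet its log2 fold change was 1.21 (SE 0.95, adjusted p = 0.539). Its standard error came from the pooled spread, in which the high-Actb libraries reached 1870.5 scaled TPM. Ssr1 was at 71.3, 74.4 and 74.1 scaled TPM in Blimp1+ cells and 46.9, 96.7 and 46.1 in LPS 44 h, and these overlapped.

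In the signal recognition particle, 1 of 6 protein subunits was higher than in LPS 44 h, 0 than in LPS 68 h and 2 than in unstimulated cells. Srp9, which with Srp14 slows the ribosome while the particle is bound, was at 317, 384 and 426 scaled TPM in Blimp1+ cells, 207, 159.9 and 201 in LPS 44 h and 169.9, 178 and 177 in unstimulated cells. Its log2 fold change was 0.98 (SE 0.32, adjusted p = 0.0373) against LPS 44 h and 1.09 (SE 0.32, adjusted p = 0.0162) against unstimulated cells. Srp14 was at 431, 355 and 443 scaled TPM in Blimp1+ cells and 221, 221 and 248 in unstimulated cells, a log2 fold change of 0.83 (SE 0.20, adjusted p = 0.00267), and both genes separated these groups without overlap. Srp54a, the subunit that binds the signal sequence, was at 97.4, 99.3 and 74.2 scaled TPM in Blimp1+ cells and 72.2, 103 and 95.3 in LPS 44 h, with overlap and a log2 fold change of 0.01 (SE 0.42, adjusted p = 1). Srp54a has near-identical copies, Srp54b among them, so reads may have been divided between them and its values are uncertain. Srp19, Srp68 and Srp72 passed the test in none of the 3 comparisons. Their largest log2 fold change was that of Srp19 against unstimulated cells, 1.42 (SE 0.60, adjusted p = 0.121).

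The receptor has 2 subunits. Srprb, which anchors it in the membrane, was at 58.4, 62.3 and 54.7 scaled TPM in Blimp1+ cells, 33.5, 40.4 and 34.9 in LPS 44 h, 27.2, 28.0 and 12.1 in LPS 68 h and 18.7, 20.0 and 13.9 in unstimulated cells. All 3 Blimp1+ libraries were above the others. The log2 fold change of Srprb was 1.70 (SE 0.35, adjusted p = 6.45e-04) against unstimulated cells and 1.43 (SE 0.35, adjusted p = 0.014) against LPS 68 h. Against LPS 44 h neither subunit of the receptor passed the test. Srpr, which contacts the particle, was at 171, 187 and 166 scaled TPM in Blimp1+ cells and 80.2, 79.7 and 80.6 in unstimulated cells, without overlap, and its log2 fold change was 1.11 (SE 0.41, adjusted p = 0.0687).

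In oligosaccharyltransferase, 4 of 8 members were higher than in LPS 44 h, 5 than in LPS 68 h and 8 of 8 than in unstimulated cells. Rpn1 was at 318, 317 and 280.4 scaled TPM in Blimp1+ cells, 129, 120.4 and 119 in LPS 44 h, 107, 96.5 and 43.9 in LPS 68 h and 58.6, 42.4 and 49.6 in unstimulated cells. All Blimp1+ libraries were above the rest, and the log2 fold change was 1.97 (SE 0.48, adjusted p = 0.0125) against LPS 68 h and 2.59 (SE 0.48, adjusted p = 1.54e-04) against unstimulated cells. Without replicate 3 of LPS 68 h, the high-Actb library, the former was 1.58 with an adjusted p of 0.189. Against LPS 44 h Rpn1 did not pass the test. Ddost, a non-catalytic subunit, was at 598, 607 and 545 scaled TPM in Blimp1+ cells and 196, 222 and 116 in LPS 68 h, a log2 fold change of 1.76 (SE 0.34, adjusted p = 8.77e-04). Krtcap2, a subunit of the form that works at the channel, was at 602, 617 and 741 scaled TPM in Blimp1+ cells, 265, 194 and 257 in LPS 44 h, 172, 194 and 173 in LPS 68 h and 129.6, 133 and 184 in unstimulated cells. The Blimp1+ values of Krtcap2 exceeded every other library of the study, and its log2 fold change was 1.46 (SE 0.27, adjusted p = 2.47e-04) against LPS 44 h and 1.85 (SE 0.27, adjusted p = 1.70e-05) against LPS 68 h.

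Ostc, the other subunit that ties the enzyme to the channel, was at 510.3, 541 and 572 scaled TPM in Blimp1+ cells, 296, 367 and 326 in LPS 44 h and 170.1, 152 and 148 in unstimulated cells. Its log2 fold change was 0.72 (SE 0.23, adjusted p = 0.0381) against LPS 44 h and 1.78 (SE 0.23, adjusted p = 5.76e-07) against unstimulated cells, with no overlap in either. Dad1, a small subunit named for its defence against cell death, was at 519, 505 and 605 scaled TPM in Blimp1+ cells and 182, 229.7 and 135 in LPS 68 h, a log2 fold change of 1.60 (SE 0.27, adjusted p = 1.10e-04). Rpn2 was at 599, 635 and 557 scaled TPM in Blimp1+ cells and 208, 208 and 213 in unstimulated cells, a log2 fold change of 1.50 (SE 0.19, adjusted p = 2.39e-07). In LPS 20 h on OP9-DL1, all high in Actb, Rpn2 was at 566, 613 and 698 scaled TPM, which overlapped the Blimp1+ range. Among the catalytic subunits, Stt3a, which acts while the chain enters, was at 457, 526 and 391 scaled TPM in Blimp1+ cells and 126, 147 and 179 in unstimulated cells, a log2 fold change of 1.60 (SE 0.50, adjusted p = 0.0238). Stt3b, which acts on sites left over after entry, was at 79.8, 89.6 and 83.5 and 47.2, 42.6 and 44.0 scaled TPM, a log2 fold change of 0.90 (SE 0.32, adjusted p = 0.04997). Both separated these groups without overlap.

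Genes that act before, after or beside these members were taken as 4 lists. Of 25 genes that build the lipid-linked glycan, 0 were higher in Blimp1+ cells than in LPS 44 h, 0 than in LPS 68 h and 3 than in unstimulated cells, and 0 were lower. Those 3 of 25 stand beside the 10.3% of all genes that were higher in that comparison, and are near it. They were Alg2, Dhdds and Alg8, of which Alg2, a mannosyltransferase, had a log2 fold change of 1.38 (SE 0.47). The median log2 fold change of this list was 0.08, 0.27 and 0.42. Of 13 genes of glycan trimming and lectin chaperones, 5 were higher in each comparison, and 1, Mogs, was lower than in LPS 44 h at -0.98 (SE 0.27). Edem2, which takes part in the disposal of misfolded glycoproteins, was at 261, 286 and 226 scaled TPM in Blimp1+ cells and 49.8, 63.5 and 52.9 in LPS 44 h, a log2 fold change of 2.20 (SE 0.22, adjusted p = 4.19e-09). Lman1, a lectin that carries glycoproteins toward the Golgi, rose by 1.80, 2.32 and 2.91 on the log2 scale.

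The other tested lists were also uneven. Of 13 tested among 15 further oligosaccharyltransferase and translocon factors, 4, 4 and 8 were higher and 0 lower. Dnajb9, an ER co-chaperone, was at 42.4, 51.6 and 51.2 scaled TPM in Blimp1+ cells and 9.87, 9.75 and 11.1 in LPS 44 h, a log2 fold change of 2.13 (SE 0.42, adjusted p = 4.21e-04). Hspa5, the ER chaperone that helps draw chains in, was higher than in unstimulated cells by 2.22 (SE 0.45). Of 17 tested among 21 genes of other routes into the ER membrane, 0 were higher and 3 lower than in LPS 44 h, 0 changed against LPS 68 h, and 2 were higher than in unstimulated cells, again near the 10.3% of all genes. The 3 lower ones were Emc8, Emc4 and Emc6, subunits of the ER membrane complex, at -0.89, -0.83 and -0.68 on the log2 scale. Emc8 was higher than in unstimulated cells, at 0.94 (SE 0.28), so its order was unstimulated cells, then Blimp1+ cells, then LPS 44 h. Xbp1, a transcription factor of the ER stress response, was at 1297, 1366 and 1202 scaled TPM in Blimp1+ cells and 142, 142 and 142 in LPS 44 h. Sdc1, which encodes the plasma cell surface marker CD138, was at 3.71, 4.92 and 2.23 scaled TPM in Blimp1+ cells and 26.3, 30.4 and 25.8 in unstimulated cells. Of the 11 plasma cell markers tested, Xbp1 and Sdc1 among them, 9 were higher and 0 lower than in LPS 44 h, 8 higher and 0 lower than in LPS 68 h, and 9 higher and 1 lower than in unstimulated cells. Sdc1 was the lower one, and the median log2 fold change of the list was 1.85, 2.07 and 2.86.

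The effect of the ligand was asked by comparing OP9-DL1 with OP9 under each stimulus and time. At LPS 44 h, 0 members were called, where 0.141% of all genes were higher and 0.0192% lower, and 0 members had an unadjusted p under 0.05. At LPS 68 h, 0 were called, where 0.0192% of all genes were higher and 0.0448% lower, and again 0 had an unadjusted p under 0.05. The median log2 fold change of the members was 0.12 and -0.04. At LPS 44 h the largest was that of Sec63, 0.78 (SE 0.47), with a 95% interval of -0.19 to 1.74. Krtcap2 was at 0.33 (SE 0.27), with an interval of -0.24 to 0.89, and Ostc at 0.35 (SE 0.23). At LPS 68 h Sec11c was at -0.35 (SE 0.28), with an interval of -0.92 to 0.21, from 620.2, 708 and 780.3 scaled TPM on OP9-DL1 and 824, 794 and 1094 on OP9. Sec11a and Dad1 were at -0.30 (SE 0.24) and -0.32 (SE 0.27). All 3 intervals given include 0 and reach further to one side of it, so similar levels are not shown.

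At anti-IgM 44 h, 0 members were called, where 0.538% of all genes were higher and 0.359% lower, and 1 had an unadjusted p under 0.05. That member was Rpn2, at 301, 294 and 321 scaled TPM on OP9-DL1 and 217, 234 and 218 on OP9, with no overlap and a log2 fold change of 0.45 (SE 0.19, adjusted p = 0.395). Sec61b and Srp9 were at 0.61 (SE 0.34) and 0.56 (SE 0.32). With only the groups compared in the fit, 11 members were higher and 0 lower, where 9.26% of all genes were higher and 6.75% lower. At anti-IgM 68 h, 1 member was higher and 0 lower, where 1.11% of all genes were higher and 0.621% lower. Dad1 was at 388, 453 and 402 scaled TPM on OP9-DL1 and 183, 221 and 185 on OP9, without overlap, a log2 fold change of 1.08 (SE 0.27, adjusted p = 0.0304). Leaving out any library of OP9-DL1, or replicate 1 of OP9, ended that call and left 0 members, and 2 were called without replicate 3 of OP9. It also fell to 0 with only the groups compared. Sec61b and Sec61g had log2 fold changes of 1.16 (SE 0.34, adjusted p = 0.0678) and 1.37 (SE 0.40, adjusted p = 0.0648). Without the high-Actb libraries, of which replicate 3 on OP9 is one, 6 members were higher and 0 lower. The share of all genes in that setting is not given.

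At LPS 20 h, 5 members were higher on OP9-DL1 and 0 lower, where 4.4% of all genes were higher and 4.41% lower. All 3 libraries on OP9-DL1 and none on OP9 were high in Actb, so Actb and the ligand cannot be told apart there. Ssr1 was at 293, 742 and 398 scaled TPM on OP9-DL1 and 38.1, 41.4 and 7.19 on OP9, a log2 fold change of 4.22 (SE 1.14, adjusted p = 0.017). Sec11a, at 289, 353 and 341 and 231, 147 and 139 scaled TPM, had a log2 fold change of 0.96 (SE 0.24, adjusted p = 0.00928), and Ostc one of 0.74 (SE 0.23, adjusted p = 0.0392). These 3 separated the stromas without overlap, and the other 2, Srp54a and Rpn2, overlapped. The count was 2 without replicate 2 and 3 without replicate 3 of OP9-DL1. It was 0 with only the groups compared in the fit, and 2 with TPM as deposited and with the authors' log2 values.

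At anti-IgM 20 h the high-Actb libraries were those on OP9, again the whole group, and 5 members were higher and 7 lower on OP9-DL1, where 10.2% of all genes were higher and 10.3% lower. The higher members were Sec61a1, Srp68, Rpn1, Ssr2 and Stt3b, and the lower ones Tram2, Ssr1, Ssr3, Srp72, Spcs2, Tram1 and Sec62. All 12 separated the stromas without overlap, with log2 fold changes from -3.71 for Tram2 to 1.57 for Sec61a1. The share of all genes that separated them was not computed. Sec61a1 was at 188, 167 and 192 scaled TPM on OP9-DL1 and 44.2, 75.2 and 66.9 on OP9. Its log2 fold change was 1.57 (SE 0.34, adjusted p = 0.00342), and it was the member called under every setting that was run. The setting without high-Actb libraries could not be run, so Actb and the ligand cannot be told apart here either. Over all libraries the ratio of the medians of Sec61a1, high-Actb to other, was 0.448. Ssr1 was at 77.1, 71.7 and 112 scaled TPM on OP9-DL1 and 1189.8, 519 and 792 on OP9, with a log2 fold change of -3.19 (SE 1.14, adjusted p = 0.045). The sign of Ssr1 was thus opposite at LPS 20 h and at anti-IgM 20 h, and in both it was high in the high-Actb group. The count of 12 fell to 2 without replicate 1, to 1 without replicate 2 and to 2 without replicate 3 of OP9-DL1, and to 1 without replicate 1 and to 6 without replicate 3 of OP9. With the authors' log2 values, 11 members were higher and 2 lower, and with only the groups compared 1 was higher and 4 were lower.

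**Figure D5:**
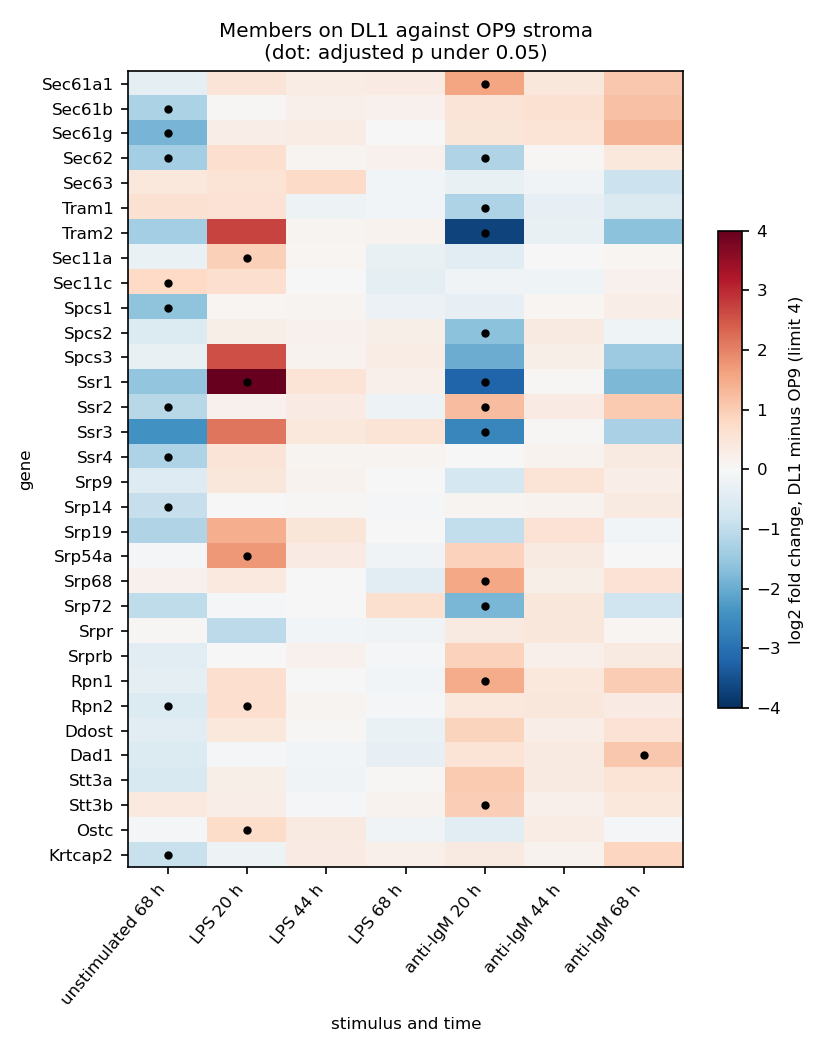
Log2 fold change of each member (vertical axis) on OP9-DL1 against OP9 under each stimulus and time (horizontal axis), with colour limits at 4 and dots where the adjusted p was under 0.05. The columns for LPS 44 h, LPS 68 h and anti-IgM 44 h are pale and hold no dot, and Ssr1, Ssr3 and Tram2 have opposite colours at LPS 20 h and anti-IgM 20 h.

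In unstimulated cells, 1 member was higher and 9 were lower on OP9-DL1 than on OP9, where 8.84% of all genes were higher and 17.6% lower. The stromal and B cell marker sums given above differed between these groups in the same libraries, the myeloid list, 9 of whose 10 genes are in the table, summed to between 30.6 and 156 TPM in unstimulated OP9 and to at most 17.6 TPM elsewhere, and their part in the result was not tested. Sec61g was at 117, 103 and 132 scaled TPM on OP9-DL1 and 684, 449.9 and 246 on OP9, a log2 fold change of -1.85 (SE 0.40, adjusted p = 5.39e-04). Spcs1 was at 204, 188 and 231 and 877, 716 and 408 scaled TPM, a log2 fold change of -1.61 (SE 0.29, adjusted p = 4.17e-05). Sec62, at 38.6, 52.2 and 59.6 and 128, 133 and 125 scaled TPM, had one of -1.37 (SE 0.39, adjusted p = 0.00819). All 3 separated the groups without overlap, and for Sec61g and Spcs1 replicate 3 of OP9, with high Actb, was nearest to OP9-DL1. Sec61b, Ssr4, Srp14, Krtcap2 and Rpn2 were also lower without overlap, from -1.25 for Sec61b to -0.55 for Rpn2, and Ssr2 was lower with overlap.

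Sec11c was the exception, higher on OP9-DL1 at 405, 329 and 456 scaled TPM against 135, 223 and 389, with overlapping groups and a log2 fold change of 0.79 (SE 0.28, adjusted p = 0.0318). It falls outside the rule for named members and was chosen after its values were seen. Without the high-Actb libraries, of which replicate 3 of OP9 is one, the counts were 3 higher and 17 lower. Leaving out that library alone gave 1 and 15. The shares of all genes in these settings are not given. The count was 5 without replicate 1 of OP9 and 6 without replicate 1 of OP9-DL1. With TPM as deposited, or the authors' log2 values, 2 members were higher and 2 lower, and with only the groups compared 0 were higher and 3 lower.

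The effect of the stimuli was asked at 68 h against unstimulated cells on the same stroma. On OP9-DL1, 2 members were higher and 0 lower after LPS, where 5.54% of all genes were higher and 2.56% lower, and 2 were higher and 0 lower after anti-IgM, where 6.07% were higher and 3.46% lower. The counts of higher members are near those shares. Both contrasts share the unstimulated libraries. Sec61b was at 262, 317 and 243 scaled TPM after LPS, 329, 245 and 368 after anti-IgM and 96.4, 117 and 134 without stimulus. Its log2 fold change was 1.24 (SE 0.34, adjusted p = 0.0186) for LPS and 1.42 (SE 0.34, adjusted p = 0.00509) for anti-IgM, with no overlap. The second LPS gene was Ostc, at 270.4, 322 and 456 scaled TPM and a log2 fold change of 1.12 (SE 0.23, adjusted p = 0.00129). The second anti-IgM gene was Sec61a1, at 187, 217 and 198 scaled TPM and a log2 fold change of 1.10 (SE 0.34, adjusted p = 0.0329). Sec11c after LPS was at 0.83 (SE 0.28) and Sec61g after anti-IgM at 1.06 (SE 0.40), with adjusted p of 0.0582 and 0.0947.

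Without the high-Actb libraries the counts on OP9-DL1 rose to 9 higher and 0 lower for each stimulus. Unlike the main counts, these counts are not set beside shares of all genes. With TPM as deposited they were 1 and 0 higher, and with the authors' log2 values 0 and 0. The LPS count was 1 without replicate 1 or without replicate 2 of unstimulated OP9-DL1 and 3 without replicate 1 of LPS. The anti-IgM count was 1 whichever single library of either group was left out. Fitted on only the groups compared, LPS gave 0 members, and anti-IgM 10 higher and 1 lower, where 13.0% of all genes were higher and 11.2% lower.

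On OP9, 3 members were higher and 6 lower after LPS, where 11.4% of all genes were higher and 19.1% lower, and 1 was higher and 10 were lower after anti-IgM, where 8.35% were higher and 15.5% lower. The LPS counts are near those shares. Both stimuli are set against the unstimulated OP9 libraries with the stromal markers, whose part in the result was not tested. Sec11c was at 824, 794 and 1094 scaled TPM after LPS and 135, 223 and 389 without stimulus, without overlap, a log2 fold change of 1.97 (SE 0.28, adjusted p = 5.83e-07). It was the member called for LPS under every setting that was run. Ostc also rose, by 1.17, as did Stt3b, whose groups overlapped. Sec62, Spcs1, Ssr4, Dad1, Krtcap2 and Srp14 fell after LPS, with log2 fold changes from -1.53 to -0.64.

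After anti-IgM on OP9, Sec61g was at 83.6, 63.2 and 157 scaled TPM, a log2 fold change of -2.16 (SE 0.40, adjusted p = 6.87e-05), and Krtcap2 was at 75.8, 81.8 and 114 scaled TPM against 333, 266 and 229, one of -1.60 (SE 0.27, adjusted p = 2.15e-05). Sec62, Spcs1, Dad1 and Srp14 fell without overlap as well, while Ssr2, Ssr4, Sec61b and Rpn2 fell and Sec11c rose with overlap. Without the high-Actb libraries LPS gave 3 higher and 7 lower, and anti-IgM 2 and 17, with no share of all genes given beside them. Without replicate 1 of unstimulated OP9 the counts were 5 for each stimulus, and without its replicate 3 the anti-IgM count was 18. With only the groups compared in the fit, they were 1 and 0.

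LPS was also set against anti-IgM at equal time and stroma. On OP9 at 44 h, 1 member was higher and 0 lower with LPS, where 4.9% of all genes were higher and 3.73% lower. On OP9-DL1 at 44 h, 0 were called, where 1.52% were higher and 1.39% lower, and 5 members had an unadjusted p under 0.05. Rpn2 was at 393, 435 and 333 scaled TPM after LPS and 217, 234 and 218 after anti-IgM on OP9, without overlap, a log2 fold change of 0.79 (SE 0.19, adjusted p = 0.00498). With TPM as deposited and with the authors' log2 values, 0 members were higher and 1 was lower. Fitted on only the groups compared, 9 members were higher and 2 lower on OP9, where 16.1% of all genes were higher and 15.9% lower. On OP9-DL1 8 were then higher and 4 lower, where 8.58% of all genes were higher and 6.99% lower. Tram1 was lower in level after LPS on both stromas, at 109, 137 and 117 against 211, 240.2 and 256 scaled TPM on OP9-DL1, but its log2 fold change was -1.08 (SE 0.39, adjusted p = 0.0886) on OP9 and -0.96 (SE 0.39, adjusted p = 0.281) on OP9-DL1. Krtcap2 on OP9-DL1, at 265, 194 and 257 against 127, 122 and 143 scaled TPM, gave 0.86 (SE 0.27, adjusted p = 0.0956). Ostc was at 0.63 (SE 0.23) on OP9 and 0.67 (SE 0.23) on OP9-DL1. Without the high-Actb libraries, none of which is in these groups, 4 members were higher and 1 lower on OP9. On OP9-DL1 3 were higher and 1 lower. Shares of all genes are not given for that setting.

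At 68 h on OP9, 4 members were higher and 0 lower with LPS, where 2.82% of all genes were higher and 1.74% lower. Sec61g was at 239.6, 264 and 284 scaled TPM after LPS and 83.6, 63.2 and 157 after anti-IgM, a log2 fold change of 1.47 (SE 0.40, adjusted p = 0.0239). Sec11c, at 824, 794 and 1094 and 367, 431 and 659.9 scaled TPM, had one of 0.92 (SE 0.28, adjusted p = 0.0463), and Rpn2 one of 0.66 (SE 0.19, adjusted p = 0.0323). These 3 did not overlap, and the other, Ostc, did. The count was 0 without replicate 1 or 3 of LPS or without replicate 2 of anti-IgM, 2 without replicate 2 of LPS and 1 without replicate 1 of anti-IgM. It was 0 as well with only the groups compared.

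At 68 h on OP9-DL1, 0 members were higher and 1 lower with LPS, where 2.61% of all genes were higher and 1.78% lower. The lower member was Dad1, at 182, 229.7 and 135 scaled TPM after LPS and 388, 453 and 402 after anti-IgM, a log2 fold change of -1.21 (SE 0.27, adjusted p = 0.00391). Its lowest library was replicate 3 of LPS, which was high in Actb, and without that library its log2 fold change was -1.01, with an adjusted p of 0.0503 in limma, and 0 members were called. Likewise 0 were called with only the groups compared, with TPM as deposited and with the authors' log2 values. Without replicate 1 of LPS, and likewise with the replicate number as a block, 1 was higher and 1 lower. Ostc was at 0.72 (SE 0.23) and Ssr3 at 2.33 (SE 0.95), with adjusted p of 0.0736 and 0.183. For Ssr3, replicate 3 of LPS at 1870.5 scaled TPM stood far above its partners.

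Change with time was tested only between groups without a high-Actb library. From 20 to 44 h of LPS on OP9, 0 members were called, where 1.05% of all genes were higher and 0.685% lower, and 4 had an unadjusted p under 0.05. Srp54a was at 33.3, 77.7 and 6.54 scaled TPM at 20 h and 68.8, 60.4 and 86.0 at 44 h, with replicate 3 at 20 h far below its partners and a log2 fold change of 1.40 (SE 0.42, adjusted p = 0.0834). Srpr was at 98.9, 106 and 926 scaled TPM at 20 h and 111, 107 and 122 at 44 h, so that replicate 3 alone was high. Its log2 fold change was -0.91 with that library and 0.14 without it. Spcs1 was at -0.62 (SE 0.29, adjusted p = 0.373). Leaving out replicate 2 at 20 h gave 1 member higher and 2 lower.

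From 20 to 44 h of anti-IgM on OP9-DL1, 0 members were called, where 0.032% of all genes were higher and 0.0256% lower, and 1 had an unadjusted p under 0.05. It was Sec63, at 35.2, 38.9 and 50.3 scaled TPM and then 16.7, 18.1 and 22.6, without overlap, a log2 fold change of -1.07 (SE 0.47, adjusted p = 0.898). Ssr4 and Krtcap2 were at -0.54 (SE 0.30) and -0.47 (SE 0.27). From 44 to 68 h, 0 were called, where 0.128% were higher and 0.0512% lower, and 0 had an unadjusted p under 0.05. Sec11c, at 425, 369 and 414 and then 556, 482 and 545 scaled TPM, had a log2 fold change of 0.39 (SE 0.28, adjusted p = 0.983). Srp54a and Rpn2 were at -0.64 (SE 0.42) and -0.28 (SE 0.19). Fitted on only the groups compared, 0 members were higher and 3 lower from 44 to 68 h, where 4.29% of all genes were higher and 3.14% lower.

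Whether the ligand acted differently under LPS and anti-IgM was tested as an interaction at 44 h, where no library was high in Actb. In limma 0 members passed, where 0.0448% of all genes were higher and 0.0384% lower, and 0 members had an unadjusted p under 0.05. The largest estimate was that of Sec63, 0.91 (SE 0.67), with a 95% interval of -0.45 to 2.27. For Rpn2 it was -0.34 (SE 0.27), with an interval of -0.88 to 0.20, and for Dad1 -0.48 (SE 0.38). Fitted on only the groups compared, 0 members were higher and 2 lower, where 3.27% of all genes were higher and 4.74% lower. Intervals of this width do not show that the ligand effects were alike.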

How the data were processed

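RNA of 45 libraries was sequenced. TPM (transcripts per 1000000 transcripts) for each gene symbol were deposited by the authors, and a second table holds the authors' log2 expression values. Tools and builds listed in the submitters' processing notes are kallisto and limma, and GRCm38 and mm10, without roles or versions. Depth was computed from the lowest log2 value of each library, on the assumption that it stands for a count of 0 in limma's usual log2 CPM, and is approximate.

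Each library's TPM was divided by a median-ratio size factor (0.442 to 1.43), and log2(scaled TPM + 1) was fitted in limma 3.58.1 (R 4.3.3) with 15 group means over all 45 libraries, an intensity trend and robust moderation. Genes that reached a TPM of 1 in 3 or more libraries were kept, which left 15614. Benjamini-Hochberg adjustment ran over all of these within each of 22 comparisons (21 pairs of groups and 1 interaction). TPM keeps no counts, so no count model was used. Log2 fold changes understate changes of low genes. The highest correlation between any libraries was 0.984, so none was counted as a repeat.

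The members and gene lists were chosen with earlier results of these data known. In each comparison the members named with statistics are called members whose groups do not overlap, up to 6 a direction, or, where fewer than 3 were called, the 3 with the smallest adjusted p, and others where needed to describe a complex. For the pairs of groups, the share of all genes whose libraries do not overlap was not computed. Replicate numbers were checked for pairing by the correlation of deviations from group means over all genes. It ran from -0.214 to 0.774, and every same-numbered pair was above 0.1 in 4 of 21 comparisons, all at 68 h with a high-Actb replicate 3 in both groups. The alternatives were TPM without scaling, the authors' log2 values, another pseudocount (0.1), no filter or one at 5 TPM, immunoglobulin genes removed, a replicate block, only the groups compared, no high-Actb libraries, and each library left out.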

Additional observations from a re-analysis of the deposited data

How the results depend on the processing

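Members called are given as counts of 32, without a share of all genes beside them in this section. A change in a count is thus not shown to be particular to the members. With a pseudocount of 0.1, a filter at 5 TPM or immunoglobulin genes removed, every count of members called stayed within 1.5 times. Without scaling (TPM as deposited) the counts for Blimp1+ cells were 5 against LPS 44 h, 5 against LPS 68 h and 8 against unstimulated cells. For OP9-DL1 against OP9 they were 4 unstimulated, 2 at LPS 20 h and 7 at anti-IgM 20 h. For LPS and anti-IgM against no stimulus they were 5 and 6 on OP9 and 1 and 0 on OP9-DL1, and for LPS against anti-IgM on OP9-DL1 at 68 h 0. The median log2 fold change of all genes against unstimulated OP9-DL1 was -0.46 in that setting for Blimp1+ cells, -0.39 with the authors' log2 values and -0.01 with scaling. For OP9-DL1 against OP9 without stimulus it was 0.15, 0.29 and -0.19. With the authors' log2 values the counts were 9 against LPS 44 h, 4 unstimulated, 2 at LPS 20 h, 4 and 7 for LPS and anti-IgM on OP9, 0 and 0 on OP9-DL1, and 0 for LPS against anti-IgM on OP9-DL1 at 68 h.

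With no filter the counts were 9 against LPS 44 h, 2 at anti-IgM 20 h and 1 for anti-IgM on OP9-DL1. With only the groups compared, which leaves 6 libraries to estimate the spread (12 for the interaction), they were 26 against LPS 44 h. For OP9-DL1 against OP9 they were 3 unstimulated, 0 at LPS 20 h, 5 at anti-IgM 20 h, 11 at anti-IgM 44 h and 0 at anti-IgM 68 h. Against no stimulus they were 1 (LPS) and 0 (anti-IgM) on OP9 and 0 and 11 on OP9-DL1. For LPS against anti-IgM they were 11 and 12 at 44 h on OP9 and OP9-DL1 and 0 and 0 at 68 h, with 3 for anti-IgM 68 against 44 h and 2 for the interaction.

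Without high-Actb libraries they were 23 against LPS 44 h, 20 unstimulated, 6 at anti-IgM 68 h, 19 for anti-IgM on OP9, 9 and 9 on OP9-DL1, 5 and 4 for LPS against anti-IgM at 44 h, 3 at 68 h on OP9-DL1 and 1 for LPS 44 against 20 h, and LPS 20 h and anti-IgM 20 h between stromas gave no value. With the replicate block the count for LPS against anti-IgM on OP9-DL1 at 68 h was 2 instead of 1, and no other count moved by over 1.5 times. In the 4 comparisons whose numbers deviated together the block left the counts at 0, 4, 9 and 11. Where settings moved a count, the cause was not tested unless the setting itself holds fewer genes or libraries.

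Leaving out 1 library gave counts of 8 to 10 against LPS 44 h, 10 to 12 against LPS 68 h and 14 to 17 against unstimulated cells for Blimp1+ cells. Between stromas it gave 5 to 16 unstimulated, 2 to 6 at LPS 20 h, 1 to 15 at anti-IgM 20 h and 0 to 2 at anti-IgM 68 h. Against no stimulus it gave 5 to 12 and 5 to 18 on OP9 and 1 to 3 and 1 on OP9-DL1. For LPS against anti-IgM at 68 h it gave 0 to 5 on OP9 and 0 to 2 on OP9-DL1, and for LPS 44 against 20 h 0 to 3. In that last comparison the log2 fold change of Srpr, -0.91 with all libraries, ran from -1.47 to 0.14, the latter without replicate 3 of LPS 20 h. Depth cannot be turned into counts per gene here, so no counting error is given.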
